A study of Mus musculus with 12 samples.

Results

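Cytosolic ribosomal proteins are the structural proteins of the ribosome that translates messenger RNA outside the mitochondria. They were taken from the array by gene name: names that begin with Rpl or Rps and a digit, the stalk proteins Rplp0, Rplp1 and Rplp2, and Rpsa, without the Rps6k kinases and without names marked as pseudogenes. The rule found 86 of the 34650 gene names on the array, with 194 of its 55681 probes. Of these, 84 were tested among 16493 genes, 35 with names of the small subunit and 49 with names of the large subunit. Rpl3l and Rpl10l, paralogs of Rpl3 and Rpl10 known from muscle and from testis, were not well above background on any array and were not tested. The name rule also holds a few genes that are not structural proteins of the ribosome, such as Rps19bp1, a nucleolar protein that binds Rps19, and Rps4l, which RefSeq lists as a transcribed pseudogene.

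Each ribosome has a small subunit, which reads the messenger RNA, and a large subunit, which joins the amino acids. Their proteins are needed in equal numbers, and their messenger RNAs are among the most abundant of a growing cell. Most of these messenger RNAs begin with a run of pyrimidines, the 5′ terminal oligopyrimidine (TOP) tract, through which mTOR signalling sets how well they are translated. B cells enlarge and make ribosomes when they are activated, and IL-4 acts on them through a receptor that activates the transcription factor STAT6.

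The 4 groups of 3 arrays were wild-type and STAT6 ko splenic B cells of female BALB/c mice aged 9 weeks, each without and with IL-4 at 25 ng/ml. All cells, controls included, had received an anti-CD40 antibody (10 µg/ml) and LPS (2 µg/ml) for 4 days, with fresh medium on day 3, so no group is resting. The B cells had been purified by negative selection, and RNA integrity numbers were 9.6 to 9.9 for 100 ng of input RNA. Whether the triplicates came from separate mice is not stated, so p-values measure the spread between these samples, which may be technical. Slide 1 held the 6 wild-type arrays and STAT6 ko control arrays 1 and 2, and slide 2 held STAT6 ko control array 3 and the 3 STAT6 ko IL-4 arrays.

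Signals are given as log2 relative to the 75th percentile of the array, with the brightest kept probe standing for a gene. Between 40.7% and 44.0% of spots per array were well above background, and the number of arrays limits the precision. Stat6, the targeted gene, lay at 3.11 to 3.42 on the 6 wild-type arrays and at 1.13 to 1.59 on the 6 knockout arrays by its brightest probe. It was 3.84-fold lower in knockout cells without IL-4 (limma adjusted p = 1.03e-06), and both other Stat6 probes were lower on every knockout array than on any wild-type array. All 8 B cell markers, among them Cd79a, Cd79b, Ms4a1, Pax5 and Blk, were well above background on all 12 arrays. Their summed level, linear and relative to the 75th percentile, was 1140 to 1180 in wild-type cells with IL-4 and 878 to 1020 in the other groups. The 6 plasma cell markers were also detected on all 12 arrays, and their summed level was 111 to 114 in STAT6 ko cells with IL-4 and 208 to 261 in the other groups. Of 6 macrophage markers 5 were detected on all arrays, and their summed level was 20 to 20.8 in wild-type cells with IL-4 against 55.9 to 61.3 in the others. Of the T cell markers Cd8a and Cd8b1 were on no array, and 5 of 8 were detected on all arrays with a summed level of 32.1 to 40.9. Granulocyte and mast cell markers (0 of 6 on all arrays; Ly6g, Mpo and Fcer1a on none) summed to at most 0.562. NK cell markers (2 of 5; Ncr1 and Klrb1c on none) summed to at most 6.24 and red cell markers (1 of 4; 2 on none, among them Alas2) to at most 2.01. Dendritic cell markers (3 of 5; Xcr1 on none) summed to between 111 and 147. A sum can rest mostly on 1 bright marker, and the changes of the single markers are not given here. In such bulk samples fewer cells of a type and less RNA per cell cannot be told apart.

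The sequence around the annotated start sites of the members was searched for short motifs. The windows printed below are picked examples, each with a marked motif, and do not stand for the members as a whole. The shares over all member starts follow in the next paragraph. RefSeq (GRCm38.p6) holds 73 start sites for 62 of the 84 tested members. Each window below runs 5′ to 3′ over 20 bases before and 20 from the start, and capitals mark the motifs searched. The TOP letters searched were CTTTC, as well as the sequence CTTCC, within 10 bases of the start on the given strand, and these can overlap. On both strands the search was for CCGGAAG, the core bound by ETS factors such as GABP. It also covered AAGATGGC, the letters bound by YY1. The E-box bound by Myc was searched as CACGTG. The TATA box was searched as TATAAA. The windows lie at chrX:134585634-134585673 (Rpl36a), chr1:39367831-39367870 (Rpl31), chr16:33056462-33056501 (Rpl35a, a start among the 3 listed), chr4:136053374-136053413 on the minus strand (Rpl11), chr9:66946066-66946105 (Rps27l, a start among the 2 listed), chr3:28805488-28805527 (Rpl22l1) and chr7:141447631-141447670 (Rplp2), on the plus strand except for Rpl11.
Rpl36a: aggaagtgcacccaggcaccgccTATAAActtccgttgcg
Rpl31: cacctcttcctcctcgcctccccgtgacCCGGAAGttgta
Rpl35a: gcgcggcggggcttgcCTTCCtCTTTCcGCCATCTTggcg
Rpl11: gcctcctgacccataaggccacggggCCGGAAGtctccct
Rps27l: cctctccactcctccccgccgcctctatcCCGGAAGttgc
Rpl22l1: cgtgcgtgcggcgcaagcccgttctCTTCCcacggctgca
Rplp2: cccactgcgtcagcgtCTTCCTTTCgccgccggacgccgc

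The TOP letters lay within 10 bases of 18 of the 73 member starts (24.7%), against 6.53% of all 32851 RefSeq starts. In the 300 bases from 250 before to 50 after the start, CCGGAAG was found at 26 member starts (35.6%) against 8.86% of all starts. AAGATGGC was found at 8 (11% against 2.75%), CACGTG at 8 (11% against 7.15%) and TATAAA at 7 (9.59% against 13.6%). Among the 49 starts of members that were lower with IL-4 in wild-type cells, as described next, 11 held the TOP letters and 20 held CCGGAAG. Among the 24 starts of the other members these counts were 7 and 6. These matches are a description of letters and not of bound sites.

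In wild-type B cells, ribosomal protein messages were slightly lower with IL-4 relative to the 75th percentile of the array. Of 84 members 54 were called lower and 0 higher at an adjusted p under 0.05 (limma), beside 30.8% of all 16493 genes called lower and 26.4% called higher. The median log2 change of the members was -0.18, which is 1.13-fold, beside -0.04 over all genes tested, and 82 members lay below 0. The quartiles over members were -0.24 and -0.13, so the genes differed little among themselves. The members' median per array was 9.44, 9.39 and 9.34 without IL-4 and 9.20, 9.30 and 9.26 with it. The groups do not overlap, but the gap between the nearest arrays is about the size of the spread within a group (SD 0.049 and 0.048).

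This count depends on the scaling. After quantile normalisation 14 members were called lower, with a median of -0.02, and in the authors' deposited values, also quantile normalised, 17 were. Of the 84 members 79 are among the brightest 10% of genes tested, and the other 1571 genes that bright had 37.1% called lower with a median of -0.11, and a median of -0.02 after quantile normalisation. Without wild-type control array 1 the count was 34, and without wild-type IL-4 array 1 it was 35. The part of brightness in the result was not tested. The summed macrophage markers were lower and the summed B cell markers higher in the same arrays, as given above, and their part was not tested. In 13 members the fall was called with the 75th percentile scaling, quantile normalisation and the authors' deposited values, among them Rpl21, Rpl28, Rpl31, Rpl35a, Rpl36a, Rps3, Rps15, Rps21, Rps25, Rps26, Rps27l and Rps29.

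**Figure D1:**
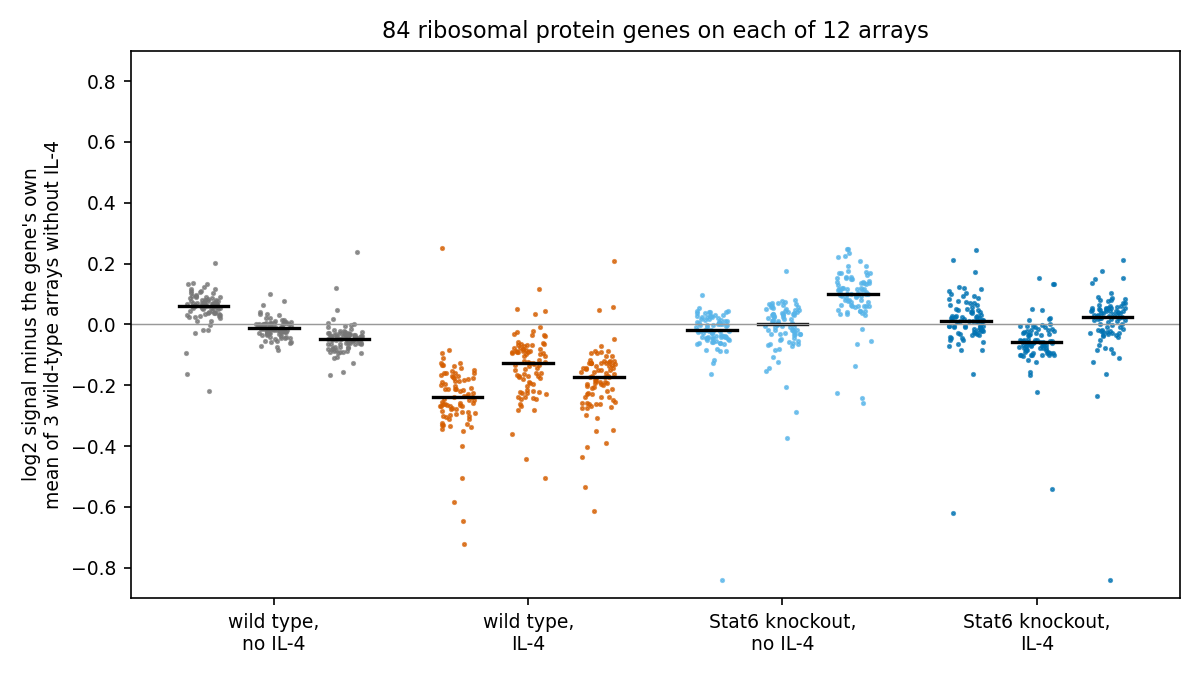
Signal of the 84 tested members on each of the 12 arrays, as the log2 difference from the gene's own mean over the 3 wild-type control arrays; each point is a gene and each bar the median of an array. The wild-type arrays with IL-4 sit below the other groups, and 9 points beyond the axis (0.9 in either direction) are not drawn.

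Of 35 small-subunit names 24 were called lower (68.6%), and of 49 large-subunit names 30 were (61.2%), beside 30.8% of all genes. The medians over all tested names of the subunit were -0.20 and -0.17. After quantile normalisation 9 small-subunit and 5 large-subunit names were called lower, with medians of -0.05 and -0.02.

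Rpl36a, a protein of the large subunit, lay at 8.91, 8.81 and 8.75 in wild-type controls and at 8.32, 8.38 and 8.42 with IL-4. The STAT6 ko arrays lay between 8.67 and 8.77 without IL-4 and between 8.70 and 8.74 with it, so that all 9 other arrays were above the wild-type IL-4 arrays. The fall was -0.45 ± 0.05 SE (1.36-fold, adjusted p = 3.61e-05), and its 3 probes gave -0.45, -0.42 and -0.47. Set against the members' median on the same array, Rpl36a lay at -0.59 to -0.53 in wild-type controls and at -0.92 to -0.84 with IL-4, a difference that a constant added per array cannot change. Its paralog Rpl36al, which encodes a nearly identical protein, gave -0.09 ± 0.06 (adjusted p = 0.244). A test of the difference between paralogs was not made.

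Rpl31, also of the large subunit, lay at 8.81, 8.79 and 8.80 in wild-type controls and at 8.40, 8.44 and 8.41 with IL-4, the tightest groups among the members described here. The fall was -0.38 ± 0.04 SE (1.30-fold, adjusted p = 1.37e-05). Rpl35a fell by 0.29 (adjusted p = 0.000241) and Rpl21 by 0.30 (adjusted p = 0.000466) on the log2 scale, both without overlap between the wild-type groups. Rpl21 and Rpl35a are proteins of the large subunit.

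The probes behind these genes are 60 bases long, and for Rpl31 and Rpl21 their mm9 coordinates span more than 60 bases, as for a probe across an exon junction. They are shown because these letters captured the signal of genes with large or opposed changes; for Rpl36a the probe is not the one that stands for the gene. The Rpl36a probe shown, the dimmest of the 3, lies at chrX:131122046-131122105, the Rpl31 probe at chr1:39425070-39426887, the Rpl21 probe at chr5:147646040-147646581 and the Rps2 probe at chr17:24857583-24857642, all on the plus strand. The letters are 5′ to 3′ as in the files, with no part in capitals.
Rpl36a: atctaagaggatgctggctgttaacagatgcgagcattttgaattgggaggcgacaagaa
Rpl31: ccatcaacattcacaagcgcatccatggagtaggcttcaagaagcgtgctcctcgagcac
Rpl21: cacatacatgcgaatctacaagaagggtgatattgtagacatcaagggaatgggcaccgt
Rps2: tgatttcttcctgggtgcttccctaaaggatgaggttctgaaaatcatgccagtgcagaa

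Ribosomal protein genes have many processed pseudogenes, and signal from their transcripts cannot be told apart from that of the gene by such probes.

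The stalk proteins recruit elongation factors to the large subunit. The values of Rplp1 and Rplp0 depended on the probe, and differences among the stalk proteins were not tested. Rplp1 lay at 10.07, 9.93 and 9.95 in wild-type controls and at 9.68, 9.76 and 9.73 with IL-4, a fall of -0.26 ± 0.05 SE (adjusted p = 0.00153) that was -0.08 after quantile normalisation (adjusted p = 0.0632). The second Rplp1 probe gave -0.14 (adjusted p = 0.0814) and was not called. Rplp2 gave -0.13 ± 0.08 (adjusted p = 0.207), with overlapping groups. Rplp0, often used as a reference gene, gave -0.08 ± 0.06 (adjusted p = 0.293) by its brightest probe, while its other probes gave -0.27 (adjusted p = 0.0229) and -0.40 (adjusted p = 0.0103), so the probes disagree.

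Rpl5 and Rpl11 form with 5S rRNA the particle that binds Mdm2, the inhibitor of p53, when ribosome assembly is disturbed. Rpl11 gave -0.15 ± 0.05 SE (adjusted p = 0.0418) and Rpl5 -0.17 ± 0.08 (adjusted p = 0.0957), and the Rpl11 call was lost after quantile normalisation (0.02). Rps6, the protein phosphorylated by S6 kinases, gave -0.16 ± 0.06 (adjusted p = 0.0338). Rpsa, also known as the laminin receptor, lay at 10.20, 10.07 and 10.12 in wild-type controls and at 9.83, 9.97 and 9.90 with IL-4 (-0.23 ± 0.06, adjusted p = 0.012). The calls of Rps6 and Rpsa were lost after quantile normalisation.

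The paralogs of ribosomal proteins can be compared pair by pair. Rpl22l1, a paralog of Rpl22, lay at 9.00, 8.93 and 8.80 in wild-type controls and at 8.61, 8.65 and 8.67 with IL-4 (-0.26 ± 0.06 SE, adjusted p = 0.00417), and Rpl22 itself gave -0.17 ± 0.06 (adjusted p = 0.0247). Rps27l, a paralog of Rps27 that p53 is known to induce, lay at 6.82, 6.85 and 6.84 in wild-type controls and at 6.57, 6.61 and 6.63 with IL-4. Its fall of -0.23 ± 0.07 (adjusted p = 0.0122) was of like size after quantile normalisation (-0.22) and in the authors' deposited values (-0.24). Rps27 gave -0.21 ± 0.06 (adjusted p = 0.0153). Rpl7 fell by 0.20 (adjusted p = 0.00324), Rpl10 by 0.17 (adjusted p = 0.0201) and Rpl39 by 0.20 (adjusted p = 0.00721) on the log2 scale. Rpl7l1 (-0.16 ± 0.12), Rpl3 (-0.09 ± 0.05), Rps4x (-0.10 ± 0.06) and Rps19bp1 (0.03 ± 0.07) were not called. The calls of Rpl22l1, Rpl22, Rps27, Rpl7, Rpl10 and Rpl39 were lost after quantile normalisation and in the authors' deposited values. After quantile normalisation Rpl22l1 gave -0.08 (adjusted p = 0.157) and Rps27 -0.06 (adjusted p = 0.144).

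In STAT6 ko B cells with IL-4, 3 of 84 members were called higher (background 27.5% of all genes) and 0 lower (background 14.7%). Their median log2 change was -0.04 beside 0.05 over all genes tested. Of the 84 members 62 lay below 0, while 9351 of all 16493 genes lay above 0. At an adjusted p under 0.05 quantile normalisation called 3 higher and 2 lower. The members' median per array was 9.36, 9.40 and 9.48 without IL-4 and 9.43, 9.33 and 9.41 with it, so the groups overlap. With slide as a block the median was -0.11 with 2 members higher and 0 lower, a fit in which the IL-4 arrays have only control array 3 beside them on slide 2. The 3 members called higher were Rps2, Rps27l and Rps4l.

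Rps2, a small-subunit protein near the entry of the messenger RNA, lay at 9.20, 9.21 and 9.22 on the STAT6 ko control arrays and at 9.35, 9.33 and 9.39 with IL-4. All IL-4 arrays were above all controls, and the rise was 0.15 ± 0.04 SE (1.11-fold, adjusted p = 0.0161). A second probe rose by 0.23 (adjusted p = 0.00259). With slide as a block the rise was 0.14 (adjusted p = 0.106). In wild-type cells the same gene lay at 9.16, 9.21 and 9.16 without IL-4 and at 9.04, 9.11 and 9.04 with it. That change of -0.12 ± 0.04 (adjusted p = 0.0299) became 0.06 after quantile normalisation, so its direction in wild-type cells depends on the scaling.

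Rps27l lay at 6.78, 6.73 and 6.70 on the STAT6 ko control arrays and at 7.05, 6.97 and 6.77 with IL-4. The groups overlap, and array 3 of the IL-4 group is the low one. The rise of 0.19 ± 0.07 SE (adjusted p = 0.0403) gave 0.10 after quantile normalisation (adjusted p = 0.229) and 0.13 without STAT6 ko IL-4 array 1 (adjusted p = 0.146). With single arrays left out it was called only without STAT6 ko control array 1 or IL-4 array 3. Without STAT6 ko control array 3, or without IL-4 array 1 or 2, only 1 member was called higher.

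**Figure D2:**
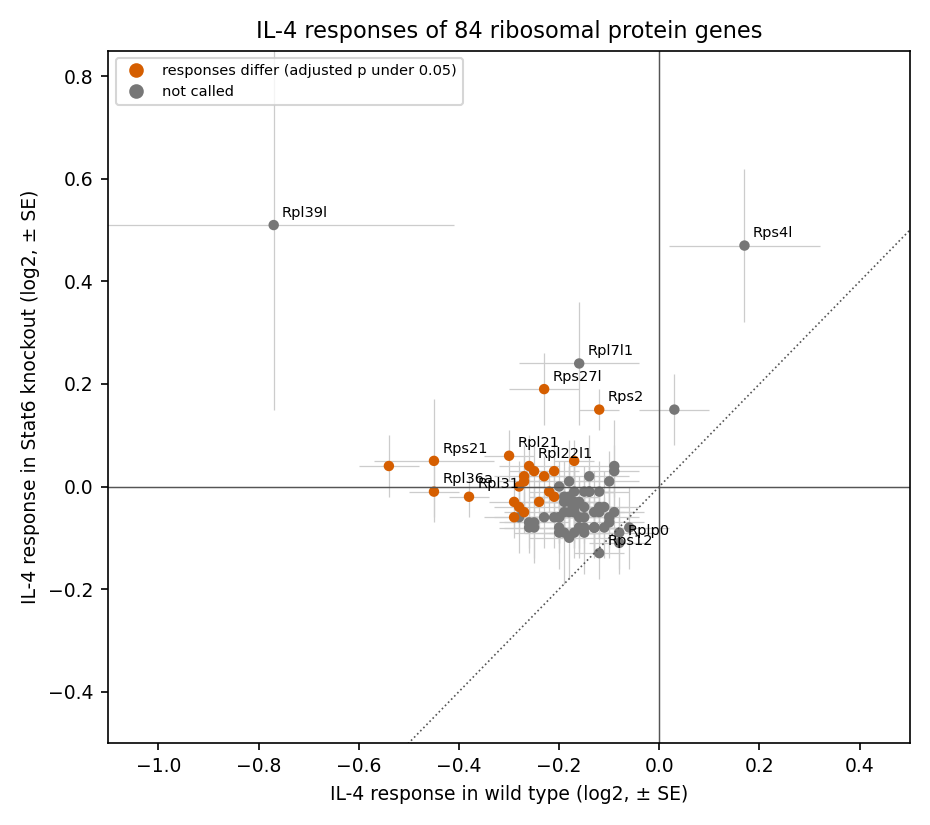
IL-4 response of each of the 84 tested members in wild-type cells (x axis) and STAT6 ko cells (y axis), both as log2 change with SE bars. Orange points are the 22 members whose responses differ by the interaction test, the dotted line marks equal responses, and most points lie left of 0 and close to 0 on the y axis.

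The difference between the responses was tested directly, as the wild-type response minus the STAT6 ko response; these 2 responses share no arrays. It was below 0 for 22 of 84 members and above 0 for 0, beside 28.3% and 16.4% of all genes, with a median of -0.14 beside -0.10. The members' share (26.2%) is near the background, so the count says nothing particular about the family. Quantile normalisation left 10 below and 1 above, the authors' deposited values 11 below, and slide as a block 9 below, of which 8 were among the 22. The 75th percentile scaling, quantile normalisation and the authors' deposited values all called, among others, Rpl21, Rpl31, Rpl36a, Rps27l and Rps29.

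For Rpl36a the difference was -0.44 ± 0.07 SE (adjusted p = 0.000847), and it was -0.40 with slide as a block (adjusted p = 0.0072). For Rpl31 it was -0.37 ± 0.06 (adjusted p = 0.000456). Rps27l, which moved in opposite directions in the genotypes, had a difference of -0.42 ± 0.09 (adjusted p = 0.00465; -0.46 and adjusted p = 0.0131 with slide as a block). For Rpl21 it was -0.36 ± 0.07 (adjusted p = 0.00229). The Rps2 difference of -0.26 ± 0.06 (adjusted p = 0.00433) became -0.14 after quantile normalisation (adjusted p = 0.0875). Across the 84 members, which share arrays and scaling, the responses of the genotypes correlated at r = -0.19 (Spearman's rho -0.19).

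**Figure D3:**
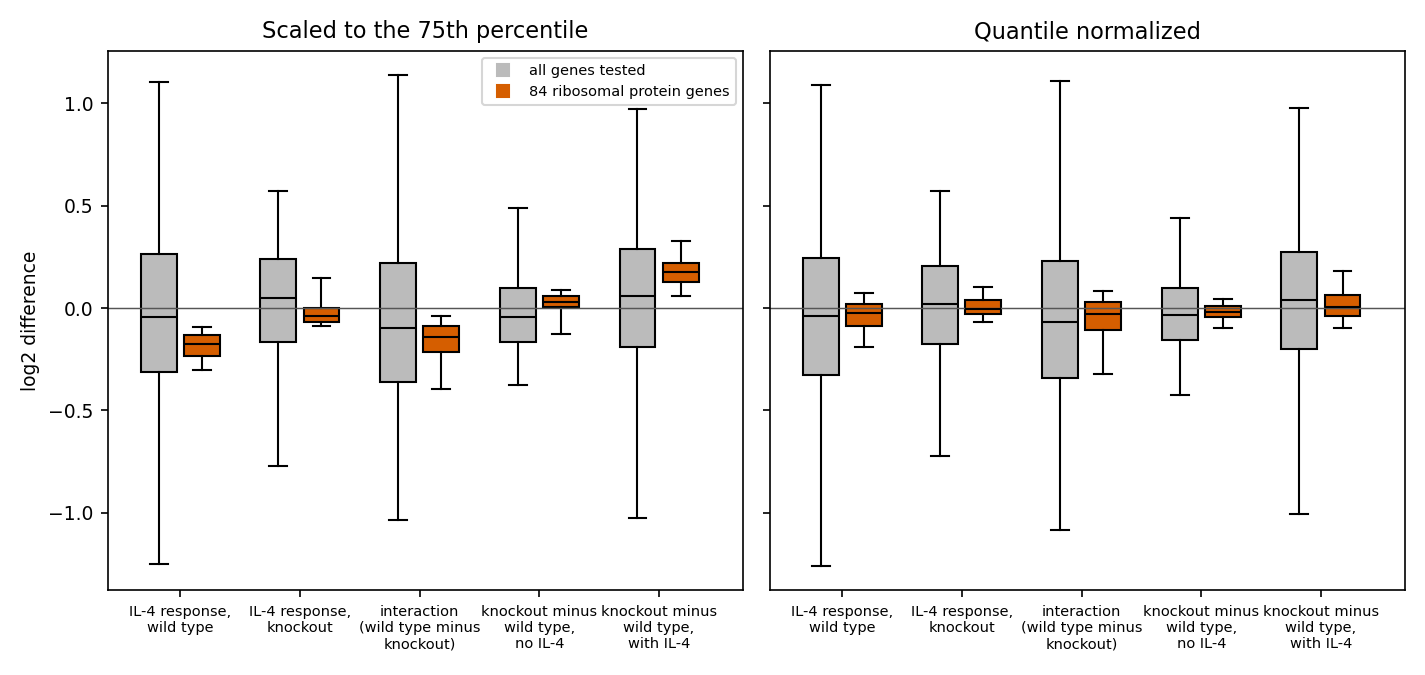
Log2 differences in the 5 comparisons for all 16493 genes tested (grey) and the 84 members (orange), with the 75th percentile scaling (left) and after quantile normalisation (right); boxes show quartiles, lines the medians and whiskers the range of the central values (all but the outer 5% at each end). The members form a narrow band beside all genes, and the band of the wild-type response moves from a median of -0.18 to -0.02 under quantile normalisation.

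Without IL-4 the genotypes differed little in these genes. Of 84 members 0 were called higher in STAT6 ko cells and 2 lower, beside 4.72% and 6.97% of all genes, with a median of 0.03 beside -0.04. Slide and genotype overlap only in part here, since STAT6 ko control array 3 was on slide 2; with slide as a block the same 2 were called. Both, Rps4l and Rpl39l, are among the dimmest members, and Rpl39l passed the filter only through the group in which it was high.

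Rps4l lay at -0.99, -0.67 and -0.65 on the wild-type control arrays and at -1.61, -1.92 and -2.19 on the STAT6 ko control arrays, and all STAT6 ko arrays were lower than all wild-type arrays. The difference was -1.14 ± 0.15 SE (2.20-fold, adjusted p = 0.00213), and -0.99 with slide as a block (adjusted p = 0.00623). With IL-4 the wild-type arrays lay at -0.52, -0.72 and -0.56 and the STAT6 ko arrays at -1.39, -1.31 and -1.61. That difference was -0.84 ± 0.15 (adjusted p = 0.000811), but -0.41 with slide as a block (adjusted p = 0.187). Rps4l was the third member higher with IL-4 in STAT6 ko cells (0.47 ± 0.15, adjusted p = 0.0269), with overlapping groups. Files of slide 2 carry another name for its probe, Rps4y2.

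Rpl39l, a paralog of Rpl39 known from testis, was well above background on 3 of 3 wild-type control arrays (-2.44, -2.35 and -2.04) and on 0 of 3 STAT6 ko control arrays. With IL-4 it was well above background on 2 of 3 wild-type and 1 of 3 STAT6 ko arrays. It passed the filter on dim probes only through the wild-type controls, so its call is given as a description and supports nothing. Rpl39 itself differed by 0.01 ± 0.05 SE between the genotypes without IL-4. Rps3a1, outside the rule for naming and picked after its values were seen, was lower in STAT6 ko controls by a second probe (-0.35 ± 0.05, adjusted p = 0.00287), while its brightest probe gave -0.20 (adjusted p = 0.117).

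With IL-4 the members were higher in STAT6 ko than in wild-type cells, in a comparison that shares the wild-type IL-4 arrays with the first. Of 84 members 50 were called higher and 1, Rps4l, lower, beside 29.8% and 21.3% of all genes, with a median of 0.18 beside 0.06. The brightest 10% of other genes had a median of 0.14. Without wild-type IL-4 array 1 the count higher was 31. This difference depends on the scaling. After quantile normalisation 15 members were called higher and 4 lower, with a median of 0.01, and 38 members lay below 0. In the authors' deposited values the median was 0.03. These groups lie on different slides, and with slide as a block 6 were called higher, among them Rpl21, Rpl31, Rpl36a, Rps2 and Rps27l. Rpl31 was 1.31-fold higher (0.39 ± 0.04 SE, adjusted p = 1.43e-05), Rpl21 1.29-fold (adjusted p = 0.000153) and Rps2 1.23-fold (adjusted p = 0.000151). The summed plasma cell markers were lower in the same STAT6 ko IL-4 arrays, as given above, and their part in the result was not tested.

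The probes of a gene did not all give the same change. Of 189 kept probes of members 126 were called lower with IL-4 in wild-type cells and 0 higher, beside 29.4% and 25.9% of all kept probes. Of the 61 members with more than 1 kept probe 30 had all their probes called lower. The like share of the 4606 genes of the array with more than 1 kept probe is not given here, so this count has no background. The size of the fall went with the signal of the probe: over the 189 probes, which share genes and arrays, the mean signal and the log2 change correlated at r = 0.59 (Spearman's rho 0.37). The 31 member probes with a mean signal under 6 had a median of -0.45 and 18 were lower (58.1%), while the 158 brighter probes had a median of -0.19 and 108 were lower (68.4%). Among the 21401 kept probes of other genes under 6 the median was -0.02, and 28.5% were lower.

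**Figure D4:**
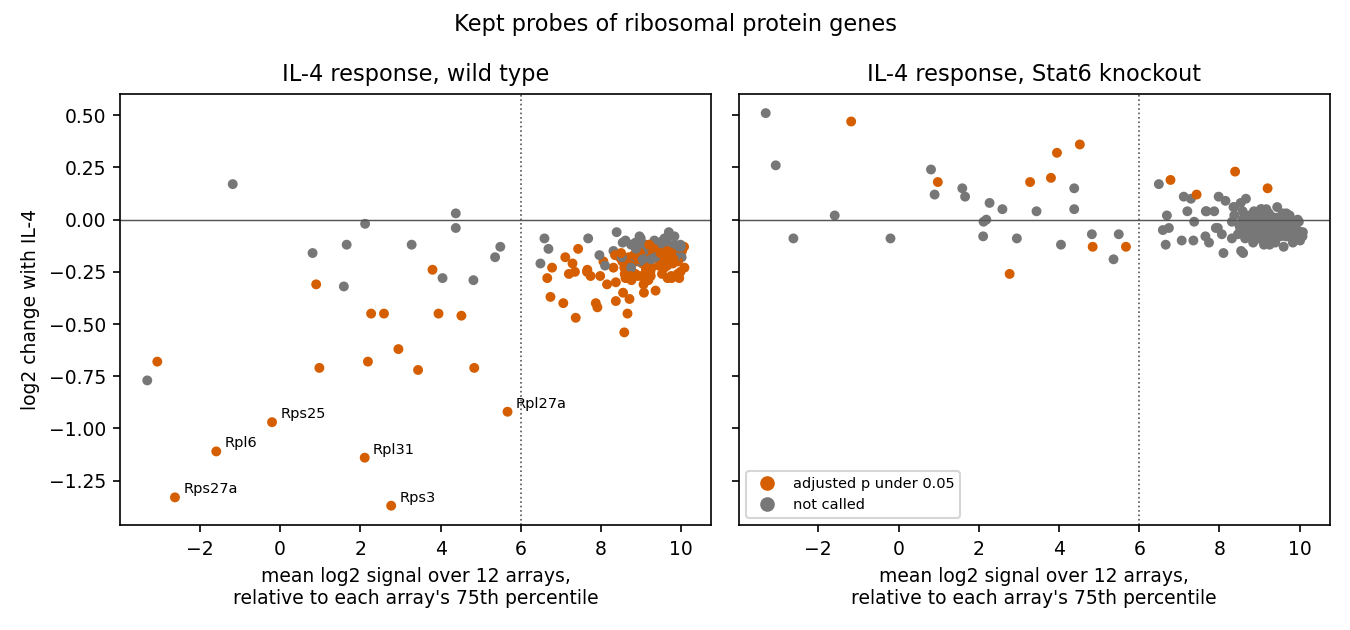
Mean log2 signal of each of the 189 kept probes of members (x axis, relative to the 75th percentile) against its log2 change with IL-4 in wild-type (left) and STAT6 ko cells (right). The dotted line marks a signal of 6, orange marks an adjusted p under 0.05, and the named probes on the left fell by more than 0.9 in wild-type cells.

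In 21 members a probe above 7 and a probe under 6 could be set side by side. The 26 dim probes of these genes had a median change of -0.46 in wild-type cells and 17 were called lower, while the brightest probes of the same genes had a median of -0.18 and ranged from -0.38 to -0.06. In 19 of the 21 the dim probes fell more on average. In STAT6 ko cells the dim probes had a median of 0.01, with 5 higher and 3 lower, beside 25.9% and 13.7% of all kept probes. In 112 other genes with such probes the medians in wild-type cells were -0.10 for the dim and -0.09 for the bright probes. In 52 of these 112 genes the mean change of the dim probes lay below that of the brightest probe, whether called or not.

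Rps3, a small-subunit protein that also acts in DNA repair, shows the size of this. Its dim probe lay at 3.14, 3.21 and 3.19 on wild-type control arrays and at 1.76, 1.81 and 1.87 with IL-4. On STAT6 ko arrays it lay at 3.16, 3.17 and 3.17 without IL-4 and at 2.92, 2.84 and 2.97 with it. The fall was 1.37 in wild-type cells and 0.26 in STAT6 ko cells (adjusted p = 7.36e-09 and 0.0026). The other 2 probes of Rps3 gave -0.25 and -0.28 in wild-type cells.

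For Rpl31 the dim probe lay at 2.43, 2.54 and 2.49 in wild-type controls and at 1.34, 1.38 and 1.34 with IL-4 (-1.14 ± 0.05 SE, adjusted p = 1.61e-08), and its 3 brighter probes gave -0.38, -0.28 and -0.23. Dim probes of Rps27a (-1.33), Rpl6 (-1.11) and Rps25 (-0.97) also fell further than the bright probes of these genes (-0.25, -0.18 and -0.28). The dim Rps27a probe was well above background on only 2 of 3 wild-type IL-4 arrays, so the size of its fall is uncertain. Rps27a encodes ubiquitin fused to a small-subunit protein.

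Dim probes of Rpl22 and Rpl14 moved in opposite directions in the genotypes. The dim Rpl22 probe lay at 4.51, 4.55 and 4.5 in wild-type controls and at 4.06, 4.07 and 4.05 with IL-4, and in STAT6 ko cells at 4.52, 4.6 and 4.61 and then at 4.96, 4.88 and 4.96. The groups do not overlap in either genotype (-0.46, adjusted p = 1.1e-05, and 0.36, adjusted p = 0.000202), and the difference of the responses was -0.82 (adjusted p = 4.64e-06). The brightest Rpl22 probe gave -0.17 and -0.01. The dim Rpl14 probe gave -0.45 (adjusted p = 9.53e-06) and 0.32 (adjusted p = 0.000313), while the brightest Rpl14 probe gave -0.06 and -0.08. These genes and those of the paragraphs on Rps3 and Rpl31 were picked after their probe values were seen.

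Stretches of 30 bases from 4 dim probes are shown because they hold the letters of the canonical polyadenylation signal, AATAAA, in capitals. They lie at chr7:106626430-106626459 on the minus strand (Rps3), chr9:44218247-44218276 (Rps25), chr9:120483719-120483748 (Rpl14) and chr2:179993107-179993136 (Rps21, its only probe), on the plus strand except for Rps3, in mm9. AATAAA was in 9 of the 31 dim member probes (29%), in 49 of the 158 brighter ones (31.0%) and in 12.7% of all 22936 kept probes, so it does not set the dim probes apart. Whether a probe lies in a coding part or a UTR is not given in the sources used here.
Rps3: ctctgcctcagggtattatgAATAAAgtgt
Rps25: ttggaaaAATAAAactttattgaatcaaat
Rpl14: gttaaccctaacaAATAAAtttcccaccaa
Rps21: gaatttgttacaAATAAAagttttaagtac

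Genes that make or use ribosomes give the setting of these values. Fau and Gnb2l1, structural ribosomal proteins that the name rule leaves out, gave -0.14 ± 0.08 SE (adjusted p = 0.145) and -0.09 ± 0.04 (adjusted p = 0.1) with IL-4 in wild-type cells and were not called. Of 24 elongation factors and other genes with TOP messenger RNAs 13 fell (54.2%, beside 30.8% of all genes) and 1 rose in wild-type cells (median -0.18). In STAT6 ko cells 6 rose (25%, near the 27.5% of all genes) and 1 fell (median 0.11). With median scaling these counts were 8 lower in wild-type cells and 14 higher in STAT6 ko cells. Impdh2, an enzyme of guanine nucleotide synthesis, fell by 0.37 in wild-type cells and rose by 0.42 in STAT6 ko cells (adjusted p = 0.000209 and 0.000207). Pabpc4, a poly(A)-binding protein, fell by 0.51 and rose by 0.33, and the small nucleolar RNA host gene Snhg12 fell by 0.62 and by 0.30. The difference of the responses was called below 0 for 13 of the 24 (54.2%, beside 28.3% of all genes).

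Of 66 ribosome biogenesis factors, which assemble the subunits, 22 fell (33.3%, near the 30.8% of all genes) and 3 rose in wild-type cells (median -0.17). In STAT6 ko cells 34 rose (51.5%, beside 27.5%) and 0 fell (median 0.29). The difference of the responses was below 0 for 43 (65.2%, beside 28.3%) and above 0 for 0. After quantile normalisation these counts were 29 and 3, 19 and 1, and 38 and 2. The list already lay lower in STAT6 ko than in wild-type cells without IL-4, with a median difference of -0.27 and 64 of 66 below 0. There 9 were called lower (13.6%, beside 6.97% of all genes), and 0 to 36 with 1 array left out. With IL-4 the median difference was 0.19. The part of this starting level in the counts was not tested. With 1 array left out 13 to 26 were lower in wild-type cells, with 14 or fewer without control array 2 or 3 or IL-4 array 1 or 3. Between 18 and 50 were then higher in STAT6 ko cells, with 21 or fewer without control array 2 or 3 or IL-4 array 1 or 2. The summed macrophage markers were lower in the wild-type IL-4 arrays and the summed plasma cell markers in the STAT6 ko IL-4 arrays, as given above. Their part in these counts and in those of the other lists was not tested. All STAT6 ko IL-4 arrays lie on slide 2, with only STAT6 ko control array 3 beside them. Counts with slide as a block are not given here for these and the other lists. Nop10, of the box H/ACA particles that modify rRNA, lay at 5.14, 5.26 and 5.23 in wild-type controls and at 4.29, 4.24 and 4.23 with IL-4 (-0.95 ± 0.11 SE, adjusted p = 4.39e-05), and gave 0.01 in STAT6 ko cells. Pes1, of the PeBoW complex of large-subunit assembly, fell by 1.29 in wild-type cells (adjusted p = 0.000352). In STAT6 ko cells Pes1 gave -0.41 (adjusted p = 0.137), below 0 unlike most of the list. Wdr12, of the same complex, fell by 0.34 in wild-type cells and rose by 0.44 in STAT6 ko cells.

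RNA polymerase I, which transcribes the rRNA genes, gave 9 of 14 lower (64.3%, beside 30.8% of all genes) and 0 higher in wild-type cells (median -0.34). In STAT6 ko cells 5 were higher (35.7%, beside 27.5%) and 0 lower (median 0.19), with 3 higher without STAT6 ko control array 3, 9 higher without IL-4 array 3, and 3 higher after quantile normalisation. Polr1c, a subunit shared with RNA polymerase III, lay at 5.4, 5.51 and 5.46 in wild-type controls and at 5.05, 5.10 and 5.08 with IL-4. In STAT6 ko cells it lay at 5.49, 5.52 and 5.53 and then at 5.99, 5.99 and 6.01. The groups do not overlap in either genotype (-0.38 ± 0.04 SE, adjusted p = 2.61e-05, and 0.48 ± 0.04, adjusted p = 1.78e-05), and the difference of the responses was -0.86 ± 0.06 (adjusted p = 1.72e-06). Polr1a, the largest subunit, fell by 0.66 and rose by 0.33. Between the genotypes without IL-4 the 14 genes had a median of -0.23 in STAT6 ko against wild-type cells, with 13 below 0.

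The initiation factors Eif3e, Eif3f, Eif3h, Eif3k, Eif3l, Eif3m and Eif4b were listed with the TOP genes above and not here. The split between these lists was therefore not one of initiation against elongation. Of 28 other translation initiation factors 12 rose (42.9%, beside 26.4% of all genes) and 3 fell in wild-type cells (median 0.11). Of these factors 19 rose in STAT6 ko cells (67.9%, beside 27.5%) and 0 fell (median 0.26). Their median in STAT6 ko against wild-type cells without IL-4 was -0.13, with 24 of 28 below 0. Eif3c, a subunit of the initiation factor eIF3, rose by 0.86 ± 0.06 SE (adjusted p = 4.51e-07) in wild-type cells and by 0.56 in STAT6 ko cells. Of 77 mitochondrial ribosomal proteins, whose subunits are encoded by other genes, 20 fell (26%, beside 30.8%) and 11 rose in wild-type cells (median -0.07). Of the same 77 genes 34 rose in STAT6 ko cells (44.2%, beside 27.5%) and 0 fell (median 0.20), but 19 rose after quantile normalisation and 22 without STAT6 ko control array 3 or IL-4 array 1. Their median in STAT6 ko against wild-type cells without IL-4 was -0.14, with 67 of 77 below 0. Among 25 regulators of translation and growth 6 rose (24%, near the 26.4% of all genes) and 6 fell (24%, beside 30.8%) in wild-type cells. In STAT6 ko cells 11 of them rose (44%, beside 27.5%) and 3 fell (12%, beside 14.7%), but 6 rose after quantile normalisation. Myc, a transcription factor that drives ribosome synthesis, fell by 0.58 ± 0.05 (adjusted p = 4.58e-06) in wild-type cells and rose by 0.27 in STAT6 ko cells (adjusted p = 0.00224). Sesn2, a stress-induced inhibitor of mTORC1, rose by 1.44 and by 0.80, and Cdkn1a, the p53 target p21, rose by 2.18 in wild-type cells and gave 0.14 in STAT6 ko cells.

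**Figure D5:**
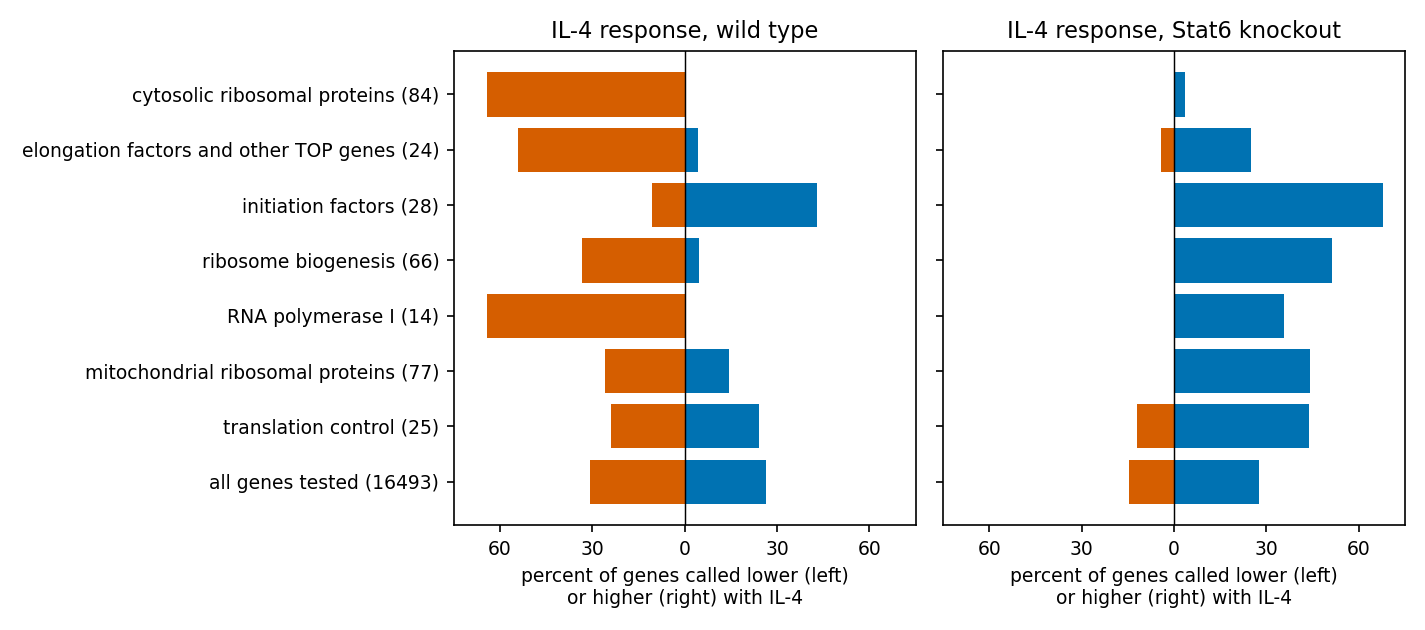
Percent of the genes of each list called higher (blue, right) or lower (orange, left) with IL-4 at an adjusted p under 0.05, in wild-type (left panel) and STAT6 ko cells (right panel), with the number of genes tested in brackets. In wild-type cells 64.3% of the cytosolic ribosomal proteins were lower beside 30.8% of all genes, and in STAT6 ko cells 3.57% were higher beside 27.5%.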

How the data were processed

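The deposited scanner files give spot intensity by Agilent Feature Extraction 10.7.3.1, per the file headers, after background subtraction and spatial detrending, with probes placed on mm9. The authors also deposited quantile-normalised log2 values by gene name, used as an alternative. Here log2 intensity was set relative to the 75th percentile of each array's 59305 non-control spots (296 to 356), without the 122 to 196 spots per array that the scanner marked as outliers. A probe was kept (22936 in all) if some group had it well above background on each of its 3 arrays, and the brightest stood for its gene.

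Means of the 4 groups were fitted over 12 arrays (limma 3.58.1, R 4.3.3; tested on simulated data), with Benjamini-Hochberg adjustment over 16493 genes. "Lower" and "higher" mean an adjusted p under 0.05, and a probe's p is adjusted over all kept probes. The members, gene lists and naming rule were chosen with earlier results of these data known. The rule names up to 4 members per direction and comparison, a fixed set of stalk, paralog and regulatory members, and up to 3 genes per list. Members listed because several scalings or the slide block called them were picked after their values were seen. Files of slide 2 name 1849 spots otherwise, and the names of slide 1 were used. Some results are not reported here. Alternatives were other scalings, filters, probe rules, blocks and left-out arrays.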

Additional observations from a re-analysis of the deposited data

Results flagged for a closer look

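The IL-4 responses of wild-type and STAT6 ko cells differed by a direct test for 22 members, all with the lower response in wild-type cells. That is 26.2% of the members, near the 28.3% of all genes tested, so the count says nothing particular about the family. Among members named by the rule, the wild-type minus STAT6 ko response was -0.44 for Rpl36a, -0.42 for Rps27l, -0.37 for Rpl31, -0.36 for Rpl21, -0.30 for Rpl22l1, -0.26 for Rps2 and -0.23 for Rpl35a (log2, limma adjusted p under 0.05). Rpl36a, Rps27l, Rpl31, Rpl21 and Rps2 were also called with slide as a block, while Rpl22l1 (-0.22, adjusted p = 0.112) and Rpl35a (-0.19, adjusted p = 0.0677) were not. Groups of 3 arrays were not screened for outlying samples.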

How the results depend on the processing

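Among the comparisons' counts and medians, 151 alternatives stayed near the reported value and 45 moved, besides those that left out 1 array. For the wild-type response, the members lower numbered 14 with quantile normalisation (median -0.02), 17 in the authors' deposited values (median -0.04), 14 with median scaling and 30 with no filter on dim probes. For the STAT6 ko response, median scaling gave a median of 0.11, and slide as a block and slide 2 alone each gave -0.11. Members higher there numbered 0 with no filter, with only the compared arrays or within slide 2, and 9 with each probe on its own. In that last setting, here and below, a member counted if any of its probes was called, so members with several probes had several tests. Members lower numbered 3 with each probe on its own, 2 with quantile normalisation, and 1 with the mean of probes, with no filter or with a variance trend and robust fit. For the difference of the responses, members lower numbered 11 in the authors' values (median -0.04), 10 with quantile normalisation (median -0.03), 9 with slide as a block (median -0.07), 46 with each probe on its own and 7 with no filter. Median scaling gave -0.27 there, and 1 member was higher with no filter or with quantile normalisation. With IL-4, members higher in STAT6 ko cells numbered 17 in the authors' values (median 0.03), 15 with quantile normalisation (median 0.01), 6 with slide as a block (median 0.07), 7 with median scaling and 26 with no filter. Members lower numbered 2 in the authors' values or with each probe on its own, 4 with quantile normalisation and 0 with slide as a block. Without IL-4, members lower numbered 4 with median scaling (median -0.16) and 1 with no filter or a stricter one. Median scaling also shifted the all-gene median from 0.05 to 0.20 for the STAT6 ko response, from -0.10 to -0.23 for the difference of the responses and from -0.04 to -0.22 for the genotypes without IL-4. With no filter many more genes, mostly dim, were tested; the cause of the other shifts was not tested.

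With 1 array left out, the wild-type response had 34 to 59 members lower (medians -0.21 to -0.14) and the difference of the responses 17 to 29 lower (-0.18 to -0.11). The STAT6 ko response had 1 to 4 higher and 0 to 1 lower (-0.07 to 0). With IL-4, 31 to 51 were higher in STAT6 ko cells and 1 lower (0.15 to 0.20), and without IL-4 1 to 2 were lower (-0.01 to 0.06).

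Single genes turned direction as follows. With quantile normalisation Rpl11 (0.02), Rpl22 (0.0011) and Rps2 (0.06) did so in the wild-type response, Rps2 also in the authors' values (0.07). Rpl22 gave 0.17 in the STAT6 ko response with the mean of probes. Between the genotypes with IL-4, quantile normalisation gave -0.0018 for Rpl11, -0.03 for Rpl39 and -0.04 for Rpl7. The authors' values gave -0.04 for Rpl3, -0.04 for Rpl39, -0.01 for Rpl7 and -0.03 for Rps27, and slide as a block gave -0.01 for Rps27.

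The labels number replicates alike in all groups, without saying what a number stands for, and were not taken as pairs, since not every correlation of same-numbered arrays was over 0.1. These correlations were 0.031 to 0.071 between the wild-type groups, -0.018 to 0.391 between the STAT6 ko groups and -0.239 to 0.007 across genotypes. Within a genotype 5 of 6 control arrays correlated best with their own number, a hint from the data and not from the design. With the number as a replicate block, 45 members were lower in the wild-type response, 2 higher in the STAT6 ko response and 19 lower in the difference. Between the genotypes the block gave 41 higher and 1 lower with IL-4 and 2 lower without it.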
